A study of Homo sapiens with 48 samples.

Results

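LBH, COL18A1, RELN, TSC22D1 and SLC30A10 are 5 genes whose transcripts were much more abundant in K562 cells after imatinib and which have no established part in heme, globin or the red cell membrane. They were chosen by that rise: they are the largest rises of imatinib against mock over all sets once heme, globin and red cell membrane genes are set aside. They are 5 of 11963 genes and hold 6 of 22215 probe sets, since COL18A1 is read by a pair of probe sets and each of the others by 1. No probe set shared with another gene symbol held a member. The rise itself is therefore how the genes were found, and it is given below as a description without a test.

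K562 is an established human cell line from a chronic myeloid leukaemia, kept growing by the fused kinase BCR-ABL1, which the drug imatinib inhibits. The data hold 48 samples of K562 RNA on Affymetrix arrays, in 8 lettered sets, each with 3 mock-treated samples and 3 samples exposed to 1 micromolar imatinib for 24 hours. What a set letter stands for is not said in the labels, nor whether samples are separate cultures. The p-values here therefore cover no more than sample-to-sample spread, which may be technical. The standard errors of changes over all sets likewise count the 48 samples as separate. RNA of mock samples went through Trizol and then a column kit, RNA of imatinib samples through the column kit alone, and the imatinib samples received less spike control RNA. These steps ran with the treatment in every set and cannot be told apart from it. In RNA of a whole culture, more transcript per cell and more cells of a kind that makes it cannot be told apart either.

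The 5 genes work in unrelated places. LBH is a small nuclear protein that modulates transcription in limb and heart development and is a target of Wnt signalling. COL18A1 encodes the chain of collagen XVIII, a basement membrane collagen that carries heparan sulfate and whose end is cut off as endostatin. Reelin, the product of RELN, is a large secreted glycoprotein that guides migrating neurons through the receptors VLDLR and LRP8 and the adaptor DAB1. TSC22D1 is a leucine zipper protein first found as a transcript induced by TGF-beta, and SLC30A10 is a cell surface transporter that exports manganese and belongs to the family of zinc exporters. K562 cells sit at an early stage of red cell development, and blocking their kinase is known to push them towards hemoglobin production.

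The promoters of the 5 genes were read first, because genes that move together invite the question of what letters their start sites share. RefSeq (assembly GRCh38.p14) lists 11 start sites for them, all 5 genes being matched, and each window runs from 250 bases before to 50 bases after a start. LBH has 1 start site, on chromosome 2, and RELN has 1, on chromosome 7. COL18A1 has 2, TSC22D1 has 5 and SLC30A10 has 2. The windows printed are that of LBH, the largest riser of the group, that of RELN, and the only member window that holds a GATA motif, the fourth of TSC22D1. The LBH window is chr2:30231284-30231583 on the plus strand, and capitals mark the GC-rich motif CCNCNCCC of KLF-type factors on either strand.
LBH: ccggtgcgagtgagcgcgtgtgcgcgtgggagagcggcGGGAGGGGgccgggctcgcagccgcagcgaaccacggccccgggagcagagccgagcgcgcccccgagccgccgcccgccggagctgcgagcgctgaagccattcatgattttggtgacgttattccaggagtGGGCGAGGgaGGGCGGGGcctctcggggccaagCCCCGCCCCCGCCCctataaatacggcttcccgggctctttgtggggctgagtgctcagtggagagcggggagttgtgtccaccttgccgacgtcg
The RELN window is chr7:103989609-103989908 on the minus strand, and capitals mark the E-box CACGTG.
RELN: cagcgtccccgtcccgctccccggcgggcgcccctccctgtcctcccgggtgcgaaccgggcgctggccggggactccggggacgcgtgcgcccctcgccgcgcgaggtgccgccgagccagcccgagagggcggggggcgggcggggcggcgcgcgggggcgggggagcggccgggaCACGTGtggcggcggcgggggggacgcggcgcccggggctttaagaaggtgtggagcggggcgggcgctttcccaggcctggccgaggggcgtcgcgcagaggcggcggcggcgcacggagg
The TSC22D1 window is chr13:44437199-44437498 on the minus strand, and capitals mark the GATA motif, which is A or T, then GATA, then A or G, on either strand.
TSC22D1: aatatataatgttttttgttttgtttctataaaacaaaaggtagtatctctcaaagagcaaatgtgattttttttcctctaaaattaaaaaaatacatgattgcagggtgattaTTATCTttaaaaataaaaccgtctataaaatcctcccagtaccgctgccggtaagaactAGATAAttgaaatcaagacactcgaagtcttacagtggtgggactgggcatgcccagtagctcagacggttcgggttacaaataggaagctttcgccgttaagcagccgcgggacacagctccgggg

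Of the motifs searched, CCNCNCCC alone was in a window of each of the 5 genes, and it was common everywhere. The GATA motif, the binding letters of the factors that drive red cell genes, was in 24.97% of 35116 RefSeq promoters and in 1 of the 11 member windows, at -136 and -77 of the TSC22D1 window printed above, counted in bases from the start site. CCNCNCCC was in 56.2% of all promoters and in 8 member windows, with 6 places in LBH, 8 in RELN and 12 in the first window of COL18A1, some of them overlapping each other. CACGTG, which reads the same on both strands, was in 7.26% of promoters and in 2 member windows, at -72 in RELN and at -42 in the second window of TSC22D1. The forkhead letters TGTTTAC (3.42% of promoters) and the STAT letters TTCNNNGAA (7.66%) were in none of the 11 windows, both strands read. The windows also differed in base composition: GC content was 71.3% in LBH, 83.3% in RELN and 86.7% in the first COL18A1 window, against 39.0% in the TSC22D1 window printed and 42.3% in the first SLC30A10 window. The median over all promoters was 58.7%. A match of letters is a description of the window and says nothing about binding, and which start site K562 cells use was not measured.

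Levels are log2 values as deposited, so a difference of 1 is a doubling. LBH was the highest riser of the group, with a mean level of 6.21 in 24 mock samples and 10.34 in 24 imatinib samples, a difference of 4.13 ± 0.06 (SE) or 17.5-fold. Its mock values had a lowest of 5.44, a median of 6.16 and a highest of 7.17, and its imatinib values 9.30, 10.34 and 11.21. No imatinib sample overlapped any mock sample, in the same or another set. In mock samples LBH lay below the median of all probe sets of its array in 20 of 24 samples, and after imatinib it lay above it in all 24.

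COL18A1 gave much the same picture through both probe sets. Probe set 209082_s_at had a mean of 5.58 in mock and 9.45 in imatinib samples, a difference of 3.87 ± 0.08 or 14.6-fold. Its mock values had a lowest of 4.79, a median of 5.49 and a highest of 6.75, against 8.13, 9.30 and 10.49 after imatinib. Probe set 209081_s_at had means of 5.74 and 9.27, a difference of 3.53 ± 0.09 or 11.6-fold. Every mock value of both lay below the array median and every imatinib value above it.

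RELN and TSC22D1 started from higher levels than that. RELN had a mean of 7.03 in mock and 10.27 in imatinib samples, a difference of 3.24 ± 0.06 or 9.46-fold. Its mock values had a lowest of 6.17, a median of 6.91 and a highest of 8.06, and its imatinib values 8.96, 10.28 and 11.27. All 24 mock values of RELN already lay above the array median. TSC22D1 had means of 6.87 and 9.98, a difference of 3.10 ± 0.06 or 8.59-fold. Its mock values had a lowest of 5.75, a median of 6.68 and a highest of 8.23, against 8.61, 9.87 and 11.07 after imatinib, and 3 of 24 mock values lay below the array median.

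SLC30A10 had the lowest signal. Its mean was 5.52 in mock and 8.41 in imatinib samples, a difference of 2.89 ± 0.07 or 7.40-fold. Its mock values had a lowest of 4.35, a median of 5.63 and a highest of 6.53, and its imatinib values 6.58, 8.60 and 9.61. The lowest imatinib value, in set E, thus cleared the highest mock value, in set B, by very little, while within sets the groups stood far apart. Its median place among the probe sets of an array went from the 29.4th percentile in mock to the 85.2nd after imatinib, while LBH went from the 45.1st to the 96.4th. A percentile also depends on how strongly a probe set binds, so these places are not transcript numbers.

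**Figure D1:**
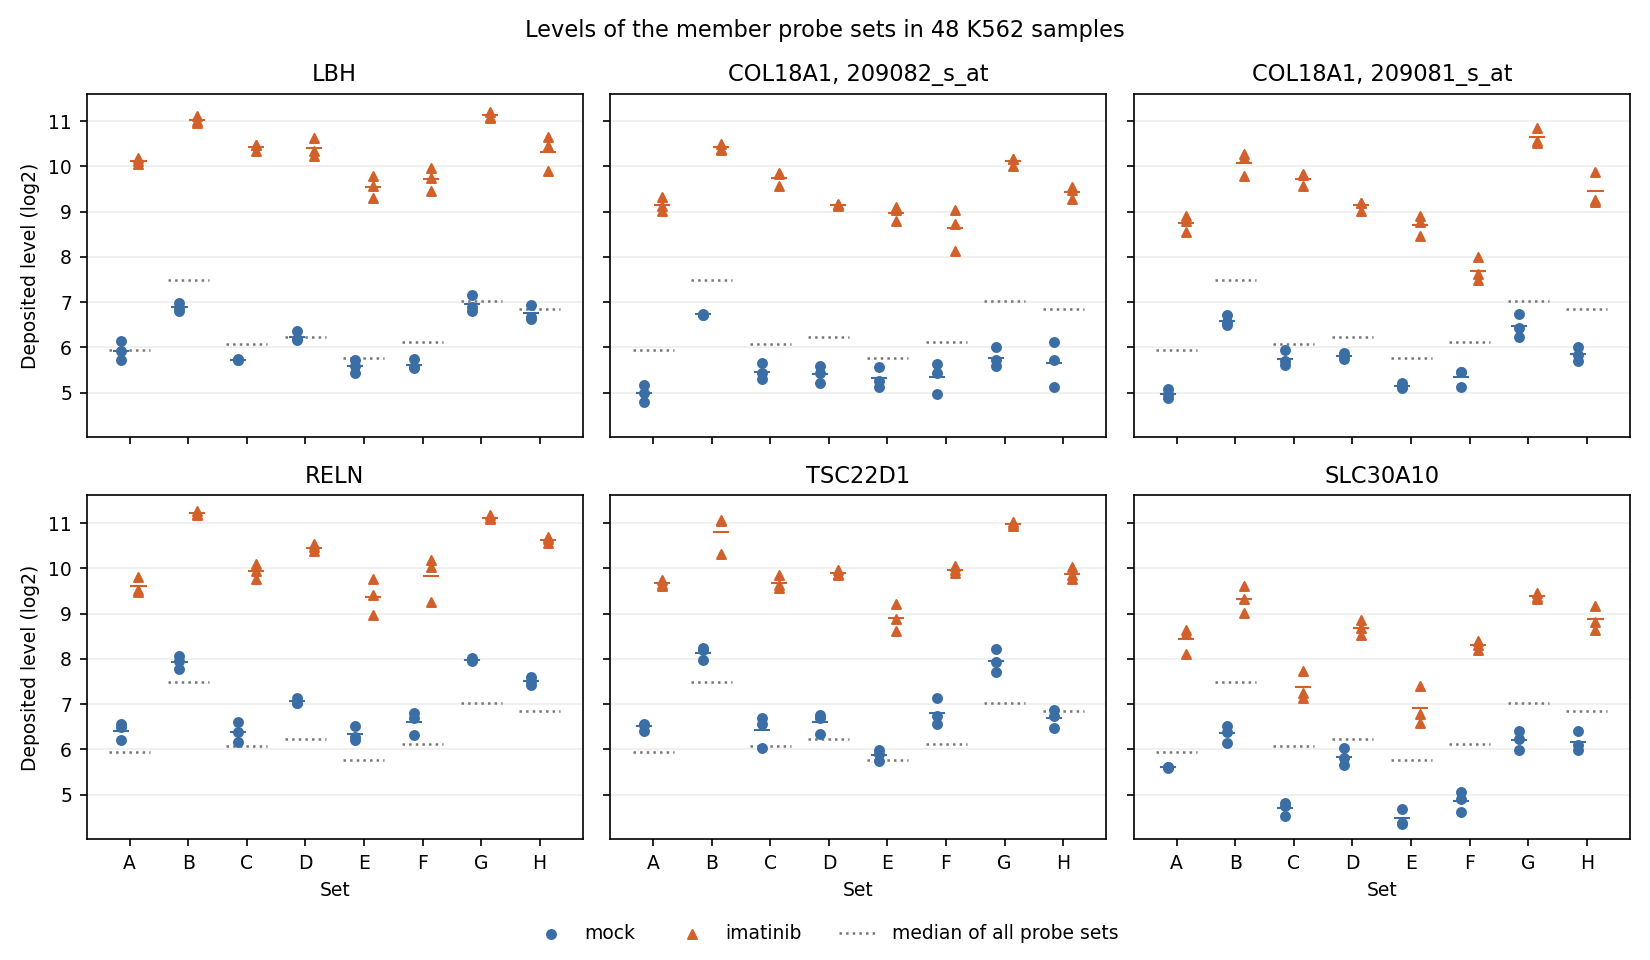
Deposited log2 level (vertical axis) of each member probe set in every sample, by set (horizontal axis). Circles are mock and triangles imatinib samples, short bars are means of 3 samples, and dotted lines are the median of all probe sets in the set: in all 8 sets the imatinib values lie above the mock values, and the mock values of RELN lie above the dotted line while those of COL18A1 and SLC30A10 lie below it.

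In every set the lowest imatinib sample lay above the highest mock sample for all 6 member probe sets, which held for 5.43% of all probe sets. Over all 48 samples, sets mixed, it held for the 6 as well and for 0.257% of all probe sets. Both shares only restate the choice of the members. The smallest gap between the groups within a set was 2.95 for LBH (set H), 2.51 and 2.03 for the probe sets of COL18A1 (both in set F), 2.44 for RELN (set F), 2.08 for TSC22D1 (set B) and 1.89 for SLC30A10 (set E). The SD between samples of a group was 0.18 for LBH, 0.24 and 0.19 for COL18A1, 0.21 for RELN, 0.22 for TSC22D1 and 0.23 for SLC30A10, against a median of 0.12 over all probe sets.

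Among the 6974 genes whose mean level reached the median of all probe sets, LBH had the 3rd largest rise and COL18A1 the 4th, between the heme enzyme ALAS2 (4.91) and the water channel AQP1 (4.14) above them and the anion exchanger SLC4A1 (3.67) below. RELN was 8th, TSC22D1 10th and SLC30A10 11th. Just outside the group, SLC30A10 was followed by the membrane skeleton gene ADD2 (2.80) and the globin chaperone AHSP (2.77). The next genes of neither kind were FEZ1 (2.77), SLC22A4 (2.73) and CITED2 (2.66).

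Whether the change was of one size in all sets was not used to choose the genes and could be tested. The limma F test of the set-by-treatment terms called LBH (adjusted p = 0.0104) and both probe sets of COL18A1 (adjusted p = 0.0312 for 209082_s_at and 3.04e-06 for 209081_s_at). It did not call RELN (adjusted p = 0.581), TSC22D1 (0.410) or SLC30A10 (0.0876, which was 0.0119 without imatinib sample 1 of set E and 0.0335 without imatinib sample 2 of set C). The test called 7.2% of all probe sets and 40.3% of the 325 other probe sets that were at least 2-fold higher, and 3 of the 6 member probe sets stand beside the latter share. The count of all called probe sets, 1599, was 707 without set C, 2928 without imatinib sample 1 of set E, 2584 without imatinib sample 2 of set C, and 963 to 1029 without mock sample 2, mock sample 3 or imatinib sample 3 of set C. A change that was not called is not shown to be equal between sets.

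For LBH, sets C and H stood at the ends of the range. In set C the mock samples read 5.74, 5.72 and 5.73 and the imatinib samples 10.33, 10.48 and 10.48, a difference of 4.70 ± 0.13. In set H they read 6.63, 6.68 and 6.94 against 10.64, 9.89 and 10.45, a difference of 3.58 ± 0.13. The other 6 sets lay between 3.97 and 4.19. The call was lost without set C (adjusted p = 0.283) and without set H (adjusted p = 0.0562), and over the alternatives run for it the adjusted p ran from 0.00195 to 0.283. Over all probe sets, the changes of set C had a slope of 1.12 on the mean changes of the other sets, against 0.89 in set H. Set G also had a slope of 1.12, with an LBH change of 4.17. Set F had the lowest slope, 0.85, with an LBH change of 4.10. Whether the slopes had a part in the LBH differences was not tested.

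COL18A1 was lowest in set F and highest in set G with both probe sets. In set F probe set 209081_s_at read 5.13, 5.46 and 5.45 in mock and 8.00, 7.49 and 7.61 in imatinib samples, a difference of 2.35 ± 0.15. In set G it read 6.23, 6.43 and 6.74 against 10.84, 10.56 and 10.51, a difference of 4.17 ± 0.15. Its adjusted p was 0.0444 without set F. Probe set 209082_s_at gave 3.29 ± 0.18 in set F and 4.33 ± 0.18 in set G, and its call was lost without set C (adjusted p = 0.110), without set F (0.0582), and without set G (0.0935). It was also lost in 8 of the 48 limma fits that left out 1 sample (adjusted p from 0.0506 to 0.0758): mock samples 2 and 3 and imatinib samples 1 and 3 of set C, mock samples 2 and 3 of set F, and imatinib samples 1 and 3 of set G.

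The probe sets of COL18A1 parted most in set F. The difference of change between them, 209082_s_at minus 209081_s_at, was 0.94 there and 0.10 to 0.40 in the other 7 sets. Their levels in mock samples of set F were alike, while the imatinib samples differed by 0.93 ± 0.25 (SD, n = 3). In set G the mock samples differed by -0.69 ± 0.16 and the imatinib samples by -0.53 ± 0.16. Both probe sets carry a suffix for probes shared by several transcripts, and which transcripts each reads was not examined.

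The remaining genes were not called. RELN ranged from 3.04 ± 0.16 in set E to 3.55 ± 0.16 in set C, the narrowest range of the 6 probe sets. TSC22D1 ranged from 2.68 ± 0.16 in set B to 3.30 ± 0.16 in set D, with the other 6 sets at 3.02 to 3.26. In set B the imatinib samples of TSC22D1 read 10.31, 11.04 and 11.07 against 8.23, 8.19 and 7.96 in mock, so a single imatinib sample stood low. SLC30A10 ranged from 2.45 ± 0.17 in set E, where imatinib samples read 7.41, 6.58 and 6.78, to 3.44 ± 0.17 in set F, where they read 8.40, 8.19 and 8.31. Set F thus held the highest change of SLC30A10 and the lowest of COL18A1.

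**Figure D2:**
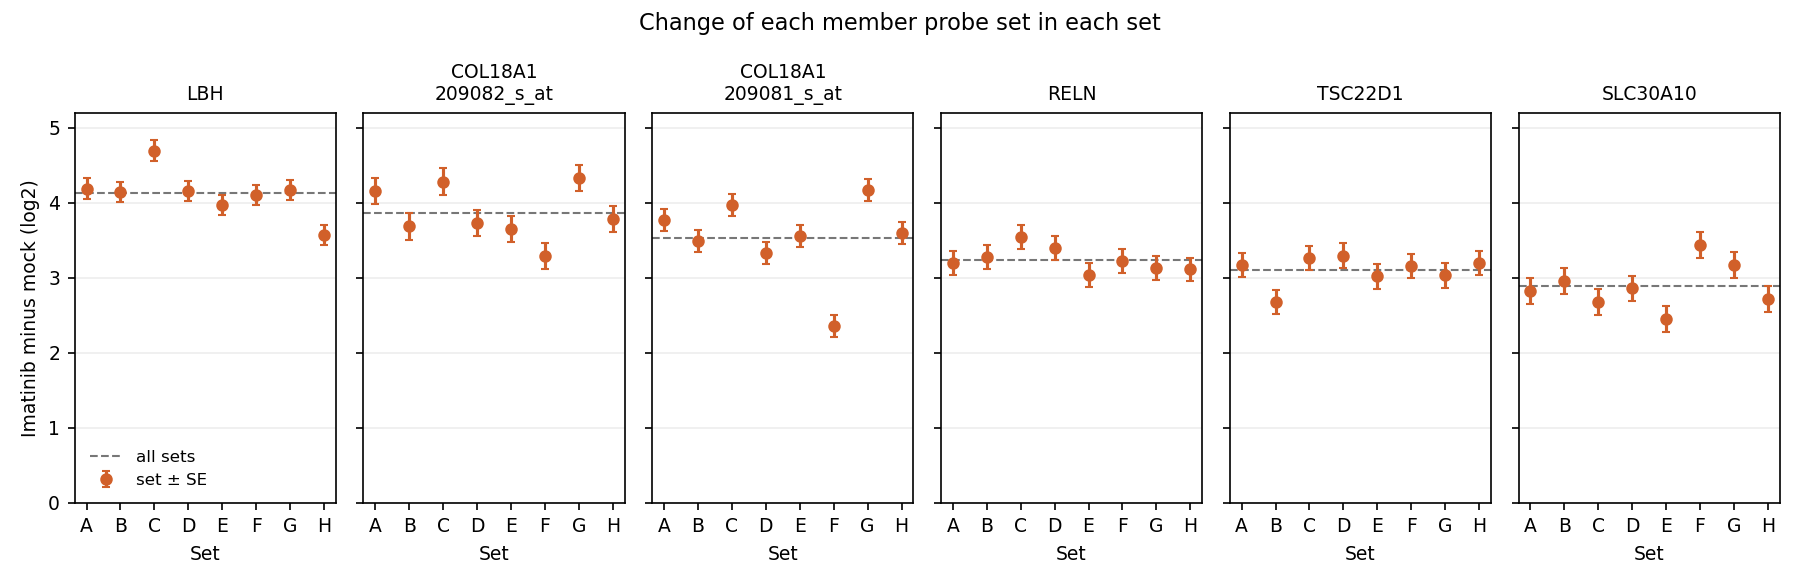
Imatinib minus mock difference (log2, vertical axis) of each member probe set in sets A to H (horizontal axis), as points with the pooled standard error and with the mean over sets as a dashed line. LBH stands out in sets C (4.70) and H (3.58), COL18A1 in set F (3.29 and 2.35), and SLC30A10 is highest in set F (3.44).

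Sets differed in the size of changes in general, with slopes on the other sets from 0.85 in set F to 1.12 in set C over 22209 probe sets without the members. Dividing each change by the slope of its set widened the spread over sets for LBH, RELN, TSC22D1 and SLC30A10. It narrowed the spread for both probe sets of COL18A1. The SD of the changes over sets went from 0.31 to 0.34 for LBH, from 0.16 to 0.30 for RELN, from 0.20 to 0.42 for TSC22D1 and from 0.31 to 0.49 for SLC30A10. The SD went from 0.36 to 0.30 and from 0.55 to 0.43 for the probe sets of COL18A1. SLC30A10 ran furthest from the general pattern, with a divided change of 2.39 in set C and 4.05 in set F.

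Beyond the treatment, the members moved together to different degrees between samples of the same group. Deviations from the group means over 48 samples correlated most for TSC22D1 and SLC30A10 (Pearson r = 0.66, with 0.75 in mock and 0.62 in imatinib samples). RELN followed TSC22D1 (r = 0.46) and SLC30A10 (r = 0.38). COL18A1 followed neither TSC22D1 (r = -0.20) nor SLC30A10 (r = -0.17), and its r with RELN was -0.35 in mock and 0.75 in imatinib samples. The value of 0.75 leans on imatinib samples of sets F and E. In set F, COL18A1 and RELN deviated by 0.40 and 0.36 in sample 1 and by -0.50 and -0.57 in sample 2. In set E they deviated by 0.13 and 0.38 in sample 1 and by -0.19 and -0.42 in sample 2. The r without these samples was not computed. The correlations of RELN with TSC22D1 and SLC30A10 were 0.55 and 0.51 in mock and 0.42 and 0.32 in imatinib samples. These are 10 pairs described without a test, and the values of a pair share their arrays. COL18A1 was read here from 209082_s_at alone. In mock samples of set H that probe set read 6.13, 5.72 and 5.11, while 209081_s_at read 5.83, 5.70 and 6.01.

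Some samples lay to one side in all 5 genes, in both treatments, and the widest of these were imatinib samples of sets E and F. In set E all 5 genes were above their group mean in sample 1 (mean deviation 0.31) and below it in sample 2 (-0.30). In set F all 5 were above in sample 1 (0.24) and below in sample 2 (-0.30), led there by RELN (-0.57) and COL18A1 (-0.50). Smaller one-sided deviations of all 5 genes were found upward in imatinib sample 1 of set G (0.05) and in mock samples A2 (0.08), B2 (0.05) and D1 (0.12). They were found downward in imatinib sample 2 of set G (-0.06) and mock sample B3 (-0.11). Other probe sets at least 2-fold higher shifted the same way by less, with median deviations of 0.19 and -0.18 in those samples of set E and 0.04 and -0.11 in those of set F. Probe sets at least 2-fold lower also shifted up and down with them, by 0.16 and -0.15 in set E and by 0.02 and -0.07 in set F. The part of these shifts in the member results was not tested. With any single sample left out, the combined change stayed within 4.11 to 4.16 for LBH and 3.84 to 3.91 for COL18A1 (209082_s_at). It stayed within 3.22 to 3.27 for RELN, 3.08 to 3.14 for TSC22D1 and 2.86 to 2.92 for SLC30A10. A combined change averages 24 samples per treatment, so 1 sample moves it little. These ranges therefore cannot show the part of the shifts.

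**Figure D3:**
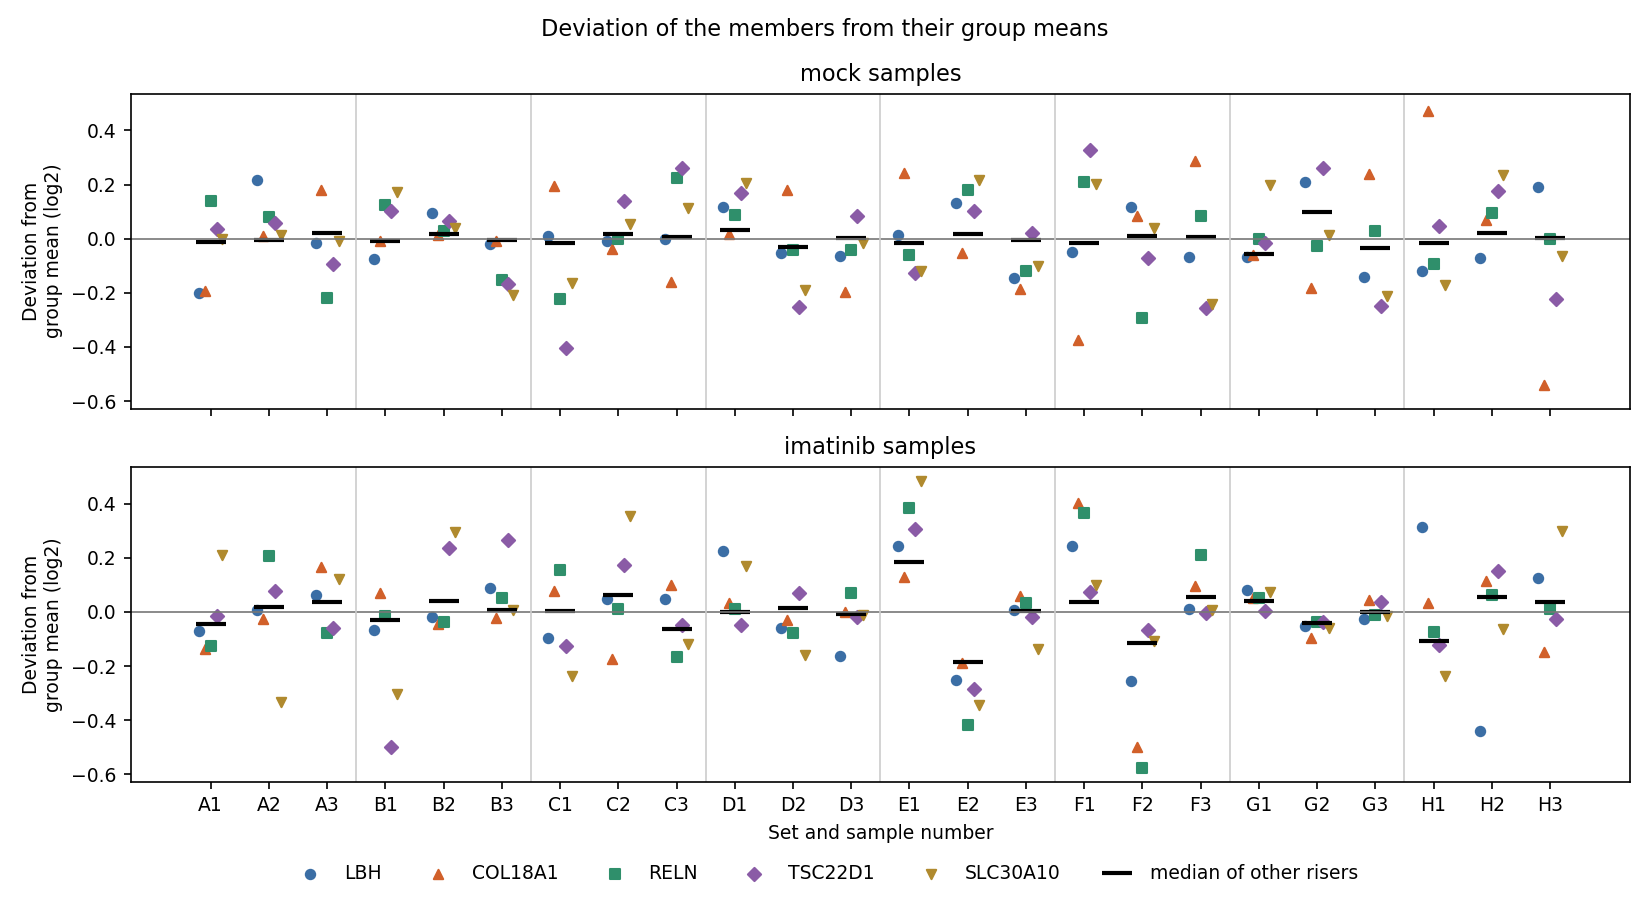
Deviation of each member gene (brightest probe set, log2) from the mean of its 3 samples, for mock samples (upper panel) and imatinib samples (lower panel), with set letter and sample number along the horizontal axis. Black bars give the median over other probe sets at least 2-fold higher: all 5 genes lie above 0 in imatinib samples E1 and F1 and below 0 in E2 and F2.

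The genes most like each member were found by the Pearson r of levels over the 48 samples, with the mean of each set removed, among 6974 genes of that level. Since the treatment dominates these values, r is near 1 for any strong riser. LBH was most like ALAS2, which makes the first step of heme synthesis, with r = 0.996, then ADD2 (0.996) of the membrane skeleton and PPOX (0.995), a later heme enzyme. COL18A1 was most like PKLR (0.994), the pyruvate kinase of liver and red cells, then PPOX (0.993) and VAT1 (0.993). RELN was most like the carnitine and ergothioneine transporter SLC22A4 (0.994), the selenium binding protein SELENBP1 (0.994) and ALAS2 (0.994). TSC22D1 was most like the acid ceramidase ASAH1 (0.995), the blood group protein XK (0.993) and CROCCP2 (0.992), and SLC30A10 most like FEZ1 (0.992), YPEL5 (0.989) and ASAH1 (0.989).

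Genes that work with each member were then read from lists, each without the member. The combined limma fit with Benjamini-Hochberg adjustment over all probe sets called 41.6% of the 11963 genes higher and 27.1% lower, and the median change of all genes was 0.05. Counts in a list are read against these shares. Over all probe sets 8740 were called higher and 5738 lower, so 60.4% of calls were upward. With each array centred on its median the upward share was 48.3%, and with quantile normalization within sets it was 56.2%. Of the 102 calls in the 6 lists that follow, 13 were lost with centred arrays and 9 with quantile normalization, all of them of 0.16 or less in size, and none turned direction.

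For COL18A1, 32 of 34 genes of basement membranes and collagen processing were measured, and 16 were called higher and 8 lower, with a median change of 0.08. The largest rises were cathepsin B, CTSB (1.51 ± 0.03), and the heparan sulfate proteoglycan agrin, AGRN (1.17 ± 0.04, with 0.12, 0.40 and 1.10 in dimmer probe sets). The collagen prolyl hydroxylase subunit P4HA2 rose by 0.41 ± 0.03 and cathepsin L, CTSL, by 0.33 ± 0.04. Called lower were the prolyl isomerase PPIB (-1.01 ± 0.06), the hydroxylase subunit P4HA1 (-0.37 ± 0.04), the collagen chaperone SERPINH1 (-0.33 ± 0.03) and the prolyl hydroxylase P3H1 (-0.25 ± 0.03). Of the 32 genes, 2 were at least 2-fold higher and 1 was at least 2-fold lower. Of all 11963 genes, 189 were at least 2-fold higher and 292 at least 2-fold lower.

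For RELN, 20 of 22 genes of the reelin pathway were measured, with 8 called higher, 8 lower and a median change of 0.01, which was -0.03 with centred arrays. Of the receptors, LRP8 was lower (-1.01 ± 0.05, and -0.92 in its dimmer probe set). VLDLR had a mean level of 4.22 in mock and 4.24 in imatinib samples, far below the array median, a difference of 0.02 ± 0.03 (adjusted p = 0.628, limma). The adaptor DAB1 read 0.09 ± 0.04, called higher (adjusted p = 0.0265, limma), but not with centred arrays or quantile normalization. The related adaptor DAB2 was lower in all 4 of its probe sets, by -1.05 ± 0.05 in the brightest. Among kinases that act on the adaptor, FYN rose by 1.09 ± 0.06, with 0.92 and 0.13 in its dimmer probe sets, and YES1 fell by 1.82 ± 0.06, with -1.58 and 0.00 in its dimmer ones. The regulatory PI3K subunit PIK3R1, the largest rise of the list, read 2.05 ± 0.06, but 0.53 and 0.68 in its dimmer probe sets. The kinase CDK5 (0.59 ± 0.03) and the microtubule protein MAPT (0.20 ± 0.04) were higher, and the integrin chain ITGB1 was lower in its brightest probe set (-0.40 ± 0.05) and between -0.06 and 0.05 in its dimmer ones.

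For TSC22D1, 7 of 8 relatives and kinase partners of the NRBP and WNK group were measured, with 4 called higher and 2 lower. Its family member TSC22D2 changed in the opposite direction (-1.52 ± 0.09, with -0.46, -0.03 and 0.05 in dimmer probe sets), TSC22D3 read 0.22 ± 0.04 and TSC22D4 0.11 ± 0.03. The kinase WNK1 rose by 1.24 ± 0.04 in its brightest probe set and by 0.13 to 1.18 in the others, the pseudokinase NRBP1 by 0.15 ± 0.03, and the WNK substrate OXSR1 fell by 0.37 ± 0.03. STK39, the other substrate, read 0.04 ± 0.03 (adjusted p = 0.275, limma).

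TSC22D1 is also a TGF-beta response gene, and 25 of 26 receptors, SMADs and responses of that pathway were measured, with 12 called higher, 9 lower and a median of 0.06. KLF10, an early TGF-beta response, rose by 1.31 ± 0.06, the latency protein LTBP1 by 1.0 ± 0.03, the coreceptor ENG by 0.63 ± 0.04 (0.10 in its dimmer probe set) and the inhibitor SMAD6 by 0.37 ± 0.04. The decoy receptor BAMBI (-1.37 ± 0.04), the SMAD corepressor TGIF1 (-1.25 ± 0.05) and the ubiquitin ligase SMURF1 (-0.29 ± 0.04) were lower. The ligand TGFB1 was lower in its brighter probe set (-1.34 ± 0.06) and read 0.01 in its dimmer one.

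For SLC30A10, 27 of 34 genes of zinc and manganese transport and metal binding were measured, with 11 called higher, 8 lower and a median of 0.03, which was -0.01 with centred arrays. The largest fall was SLC39A14 (-2.39 ± 0.05), an importer of manganese and zinc, from a mean level of 8.48 in mock to 6.09 in imatinib samples. Its close relative SLC39A8, another importer, moved the other way, by 1.71 ± 0.05, with 2.02, 0.76 and 0.00 in its dimmer probe sets. The zinc exporter SLC30A1 rose by 1.39 ± 0.05, the iron and manganese importer SLC11A2 by 0.53 ± 0.04 (1.13, 1.27 and 0.24 in its dimmer probe sets) and SLC30A9 by 0.49 ± 0.05. SLC39A4 (-0.55 ± 0.04) and the ATPases ATP13A1 (-0.32 ± 0.04) and ATP13A2 (-0.24 ± 0.05) were lower. With centred arrays 7 genes were higher and 10 lower, and without set B 7 were higher. Over all probe sets, higher calls went from 8740 to 6194 with centred arrays and to 7498 without set B.

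For LBH, 26 of 32 genes of the Wnt pathway and its targets were measured, with 11 called higher, 6 lower and a median of 0.06. None was at least 2-fold higher, and of all 11963 genes only 189 were. The scaffold genes DVL3 (0.54 ± 0.04, with 0.08 in its dimmer probe set) and DVL2 (0.46 ± 0.02) and the receptors FZD4 (0.53 ± 0.03) and FZD5 (0.38 ± 0.05) were higher. LEF1, a transcription factor of the pathway, fell by 1.09 ± 0.08 in its brightest probe set and read -0.22 and 0.08 in its dimmer ones. The coreceptor LRP5 (-0.31 ± 0.04), DVL1 (-0.26 ± 0.04) and the kinase GSK3B (-0.24 ± 0.05) were lower.

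**Figure D4:**
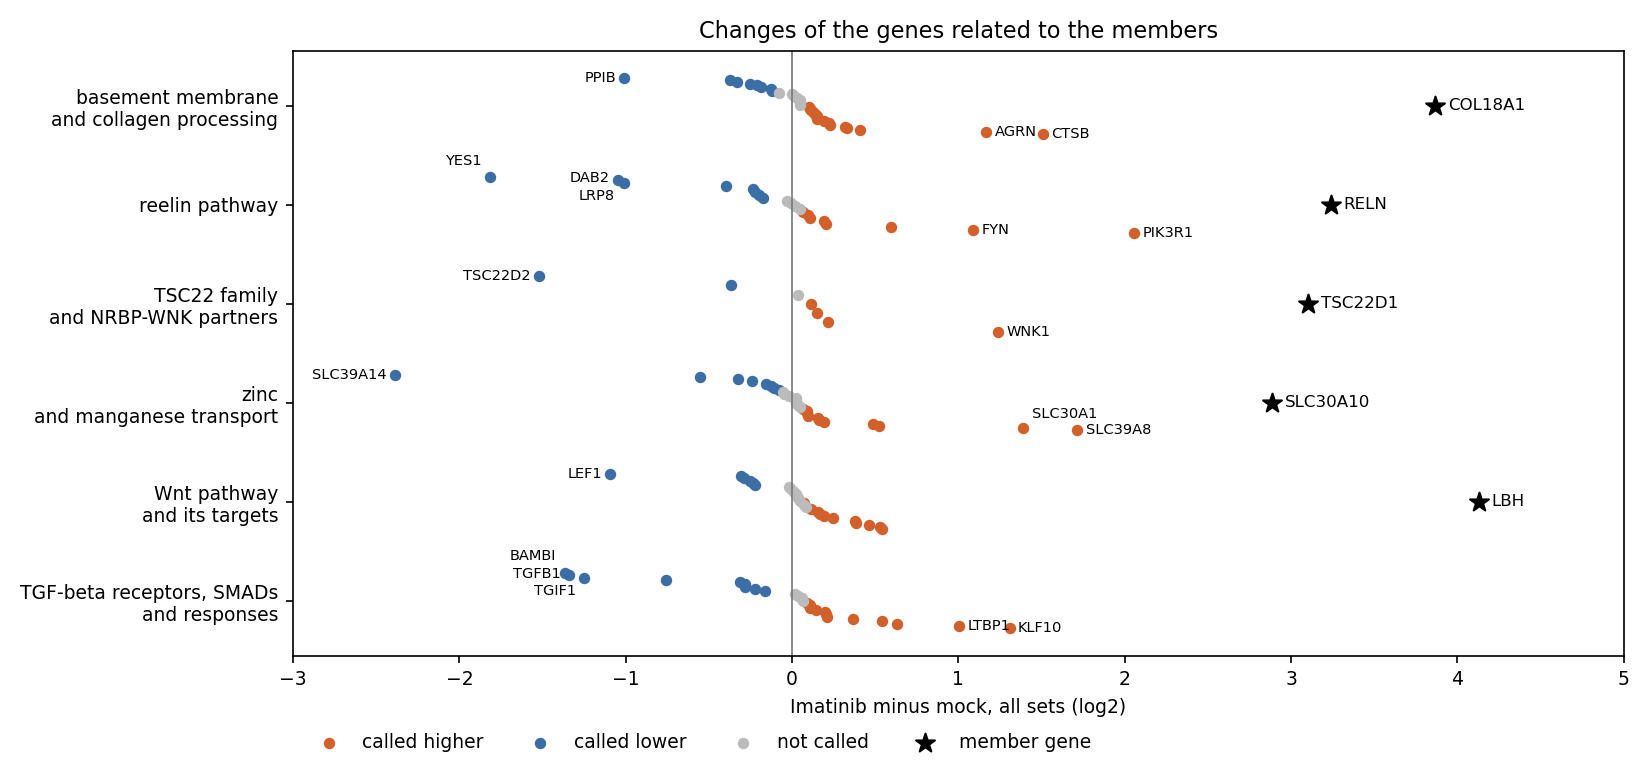
Imatinib minus mock change over all sets (log2, horizontal axis) of the measured genes in the 6 related lists (rows). Orange points were called higher, blue lower and grey not called, and stars are the member genes, shown for reference only, since their rise is what they were chosen on. PIK3R1 (2.05) is the largest rise in the lists and SLC39A14 (-2.39) the largest fall.

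The 13 red cell genes listed for comparison, which were themselves picked with their rises known, all rose, with a median of 2.80. They ran from HBD (2.05 ± 0.04) and ICAM4 (2.15 ± 0.05) through KLF1 (2.22 ± 0.05), TAL1 (2.44 ± 0.06), XK (2.44 ± 0.05), FECH (2.50 ± 0.04) and ADD2 (2.80 ± 0.04) to HBZ (3.13 ± 0.07), SLC25A37 (3.39 ± 0.12), PPOX (3.49 ± 0.04), SLC4A1 (3.67 ± 0.11), AQP1 (4.14 ± 0.08) and ALAS2 (4.91 ± 0.06). The members lay inside that range, which is one of brightest probe sets. Dimmer probe sets read 0.46 and 0.87 for ADD2, 1.22 and 0.14 for TAL1 and 2.79 for FECH. They read 2.13 and 2.97 for SLC25A37 and 3.21 for AQP1. Among markers of K562 and red cell precursors, 7 of 11 were measured, all above the array median in mock samples. All were called higher, against 41.6% of all genes. Their changes ran from 0.21 for TFRC and 0.35 for GATA1 to 2.44 for TAL1. TAL1 and KLF1 are also among the 13 red cell genes above.

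Several members are best known from other tissues, so markers of those were read beside them. Of 8 fibroblast markers 4 were called higher and 1 lower, and of 7 endothelial markers 4 and 0. Of 7 neuron markers 4 were called higher and 1 lower, and of 8 liver markers 5 and 0. In their brightest probe sets all these markers had changes between -0.38 and 0.21. The liver marker TF read 0.20 there and 0.66, 0.40 and -0.01 in its dimmer probe sets. With centred arrays the higher calls of the fibroblast, endothelial, neuron and liver markers were 2, 2, 4 and 3. Over all probe sets the higher calls went from 8740 to 6194 with this centring. Of 7 lymphocyte markers 3 were called higher and 1 lower (CD3D, -1.73 ± 0.08), and of 8 myeloid markers 1 and 1. The median mock level of the endothelial markers was 0.73 and that of the liver markers 0.74 log2 below the array median, and those of the fibroblast and neuron markers were within 0.1 of it. None of these fibroblast, endothelial, neuron and liver markers was 2-fold higher, but only 189 of all 11963 genes were. The part of these markers in the member values was not tested.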

How the data were processed

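The authors deposited 1 log2 value per probe set and sample for 22283 probe sets, and the series labels describe Affymetrix targets made from about 8 micrograms of total RNA. Not given in the sources used here are the summary, background correction and normalization behind these log2 values, and the base of the log was inferred from their range of 2.41 to 14.9. Array means of the sets ran from 5.90 to 7.60 and differed by at most 0.053 within a set, so comparisons were made within sets. The 68 control probe sets were left out, and 22215 were tested. Names came from the platform annotation, updated through the RefSeq gene table (19065 probe sets with 1 symbol, 19053 of them matched, 1043 with several and 2107 with none). A gene was read from its brightest probe set, which gave 11963 genes.

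All 48 samples entered lmFit and eBayes of limma 3.58.1 (R 4.3.3) with terms for set and treatment, two-sided and Benjamini-Hochberg adjusted p-values over all probe sets and a threshold of 0.05. A fit with set-by-treatment terms gave 1 F test per probe set, over all sets together. Changes and errors within each set came from a fit with a mean for every set and treatment. The fits were tested on simulated data. Samples of equal number did not pair: over 24 pairs of mock and imatinib samples, deviations correlated between -0.52 and 0.49 (median 0.02), and 7 pairs were over 0.1. No replicate files were identical, the largest difference in the closest pair being 0.67. Precision is limited by how many arrays there are.

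The members and the gene lists were chosen with earlier results of these data known. Named are all members with all their probe sets, the 3 genes most like each member, up to 4 called genes in each direction and list with the largest change at or above the median level, the red cell comparison genes, and genes of counts of 5 or fewer. VLDLR, DAB1, STK39 and the genes just outside the group were added after their values were seen. Keywords of imatinib samples also name mock treatment, and their titles and descriptions were followed. Figures were drawn with matplotlib 3.10.9.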

Additional observations from a re-analysis of the deposited data

Results flagged for a closer look

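The change after imatinib differed between sets A to H for LBH (limma F test of the set-by-treatment terms, adjusted p = 0.0104), with 4.70 in set C and 3.58 in set H. It also differed for both probe sets of COL18A1, with adjusted p = 0.0312 for 209082_s_at (3.29 in set F, 4.33 in set G) and adjusted p = 3.04e-06 for 209081_s_at (2.35 in set F, 4.17 in set G). All 3 were higher after imatinib in 8 of 8 sets, which only restates how the members were chosen. The same F test called 7.2% of all probe sets and 40.3% of the 325 other probe sets at least 2-fold higher. The LBH call was lost without set C (adjusted p = 0.283) or set H (0.0562). That of 209082_s_at was lost without set C (0.110), F (0.0582) or G (0.0935) and in 8 of the 48 limma fits that left out 1 sample. That of 209081_s_at was kept when any 1 set or sample was left out. What distinguishes the sets is not said in the labels, and the cause of the differences was not tested.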

How the results depend on the processing

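The changes of the 6 member probe sets kept their direction and size in all alternatives, from 2.81 to 2.95 for SLC30A10 and 4.05 to 4.21 for LBH with 1 set or 1 sample left out, with scaling changed or with the replicate block. With the replicate block, 973 probe sets changed differently between sets (1599 without it), and it changed no call of a member. Without set C that count was 707, and with 1 sample left out it ran from 963 to 2928. Limiting the tests to probe sets at or above the median level, which tests fewer genes, left 4535 probe sets higher and 957 differing between sets, with 7 higher genes in the basement membrane list, 5 in the reelin list, 6 in the Wnt list and 5 lower in the TGF-beta list. The zinc and manganese list had 7 higher genes with centred arrays and 7 without set B. Over all probe sets 6194 were called higher with centred arrays and 7498 without set B, against 8740 in the main fit. Small changes near 0.1 depend on the scaling, and several list genes with such changes were not called with centred arrays. The cause of these differences was not tested, beyond the smaller number of genes in the level filter.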
